A study of Danio rerio with 12 samples.

Results

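Mitotic kinases and the spindle assembly checkpoint are described here through 10 genes, *cdk1*, *aurka*, *aurkb*, *plk1*, *nek2*, *ttk*, *bub1*, *bub3*, *mad2l1* and *cdc20*, of 32266 genes in the table of counts. Members were taken by gene symbol, and all 10 symbols were found, each with 1 Ensembl identifier. RNA-Seq was carried out on whole heads of zebrafish larvae at 5 days post fertilization (dpf), in the WIK strain. Heads came from homozygous *rb1-/-* mutants, which carry a germline frameshift allele of the retinoblastoma gene *rb1*, and from wild-type +/+ larvae of the same in-cross of heterozygous adults. Genotype was read from the trunk of each larva, neither group carried a transgene or received an agent, and each genotype had 3 pools of 5 heads, so a value is the average of 5 animals and of every tissue of the head. Each pool was sequenced in 2 lanes, which were summed to 1 library, and the 6 libraries held between 41065256 and 47700950 counts on genes.

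Entry into mitosis is driven by Cdk1 bound to cyclin B, and its activation is helped by Aurora A and Plk1. Once chromosomes condense, the spindle assembly checkpoint delays anaphase until every kinetochore is attached to microtubules. The kinase Ttk, also called Mps1, starts the signal by recruiting Bub1 and Bub3 to unattached kinetochores, and Mad2 then captures Cdc20, the activator of the anaphase-promoting complex (APC/C). Rb restrains E2F transcription factors, and together with its relatives it keeps cell cycle genes low in cells that have left the cycle. Most of these genes are transcribed in a burst in G2 and M phase, so in normal tissue of mostly differentiated cells, dividing cells are their usual source. Which cells held the transcripts in these heads was not tested. In RNA from whole heads, a larger number of cells with a transcript and more transcript per cell cannot be told apart.

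The targeted gene was examined first. Transcripts of *rb1* (ENSDARG00000006782) were counted 570, 491 and 422 times in mutant pools 1, 2 and 3, and 1221, 830 and 826 times in wild-type pools 1, 2 and 3. Every mutant pool lay below every wild-type pool. Levels are given as CPM, the counts of a gene relative to the total of its library, with totals scaled by the trimmed mean of M values (TMM). The level was 10.3 ± 1.14 CPM in the mutant and 22.0 ± 4.36 CPM in the wild type (SD, n = 3 each). Its log2 fold change was -1.09 (SE 0.16). The quasi-likelihood test of edgeR gave an adjusted p of 0.0121, and 0.00614 once pool number entered as a replicate block. A frameshift allele can leave transcript that is still counted.

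All 10 genes had more transcript in the *rb1-/-* heads than in the wild-type heads, between 1.83-fold and 2.95-fold, and the pools of the genotypes overlapped for none of them. A gene was called when its change was at least 1.5-fold and its Benjamini-Hochberg adjusted p, over the 22753 genes that passed the filter on low counts, was at most 0.01 by edgeR's quasi-likelihood test. By that rule 8 of the 10 genes rose and 0 fell. Of all genes tested, 204 were called higher, which is 0.897%, and 65 lower, which is 0.286%. All 3 mutant pools lay above all 3 wild-type pools for 3654 genes, or 16.1%. The median log2 fold change of the 10 genes was 1.14, against -0.01 over all genes tested. All 10 genes passed the filter on low counts, with at least 395 counts in each mutant pool and at least 158 in each wild-type pool.

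**Figure D1:**
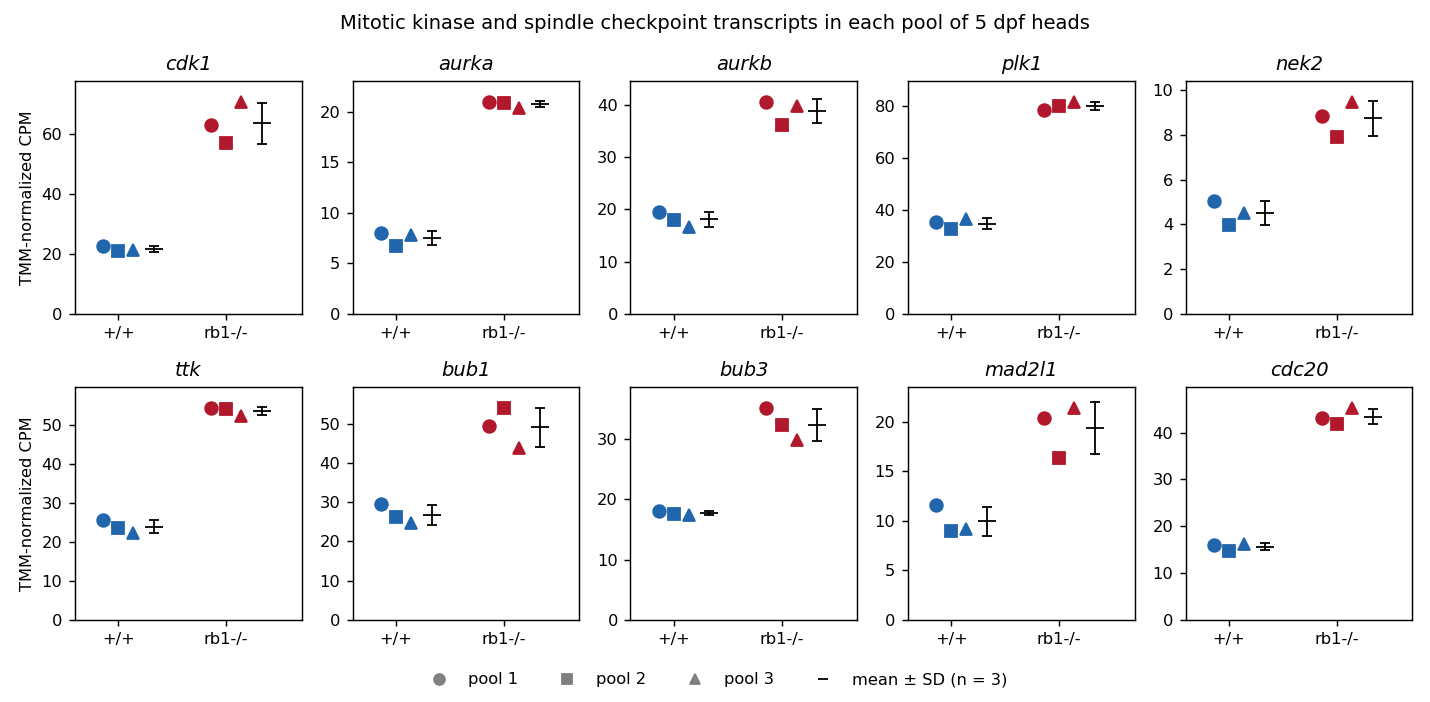
TMM-normalized CPM of each of the 10 genes in each pool of heads, from 0, with wild-type pools in blue and *rb1-/-* pools in red; the shape gives the pool number and the black bar the mean ± SD of 3 pools. In every panel the lowest red point lies above the highest blue point, by 1.41-fold for *mad2l1* and by 2.59-fold for *cdc20*.

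Among the kinases, *cdk1* (ENSDARG00000087554) encodes the catalytic subunit of the kinase that triggers mitosis. It was measured at 62.8, 57.0 and 70.5 CPM in mutant pools 1, 2 and 3 and at 22.5, 20.8 and 21.2 CPM in wild-type pools 1, 2 and 3. The wild-type pools were nearly level, the mutant pools were spread more widely, and every mutant pool was far above the wild type. The means were 63.4 ± 6.75 and 21.5 ± 0.882 CPM (SD, n = 3 each), and *cdk1* rose 2.95-fold, the largest rise of the 10 genes (log2 fold change 1.56, SE 0.10, adjusted p = 0.00095 from edgeR).

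Aurora A, the kinase of the centrosomes and the spindle poles, is encoded by *aurka* (ENSDARG00000012485). Mutant pools 1, 2 and 3 held 20.9, 20.9 and 20.4 CPM of *aurka*, and wild-type pools 1, 2 and 3 held 7.99, 6.73 and 7.76 CPM. The mutant pools differed from each other by less than the wild-type pools did, and the groups were well apart. *aurka* rose 2.76-fold (log2 fold change 1.47, SE 0.11, adjusted p = 0.00108 from edgeR).

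Aurora B is the kinase of the chromosomal passenger complex, which corrects wrong attachments of chromosomes to the spindle. Its gene *aurkb* (ENSDARG00000037640) had 40.6, 36.3 and 40.0 CPM in mutant pools 1, 2 and 3 and 19.6, 17.9 and 16.7 CPM in wild-type pools 1, 2 and 3. No mutant pool came near the wild-type range. The rise was 2.15-fold (log2 fold change 1.11, SE 0.10, adjusted p = 0.00212 from edgeR).

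Polo-like kinase 1 acts from mitotic entry to cytokinesis, and its gene *plk1* (ENSDARG00000058471) had the highest CPM of the 10 genes in both genotypes. It stood at 78.6, 80.2 and 81.6 CPM in mutant pools 1, 2 and 3 and at 35.2, 32.5 and 36.6 CPM in wild-type pools 1, 2 and 3. Pools of 1 genotype lay close together and the genotypes did not overlap. *plk1* rose 2.31-fold (log2 fold change 1.21, SE 0.09, adjusted p = 0.00106 from edgeR).

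The centrosomal kinase gene *nek2* (ENSDARG00000005619), whose product helps to separate the centrosomes, was the least abundant of the 10. Its counts were 434, 395 and 420 in mutant pools 1, 2 and 3 and 229, 158 and 203 in wild-type pools 1, 2 and 3, which came to 8.86, 7.92 and 9.47 CPM and to 5.03, 3.95 and 4.51 CPM. The groups did not overlap, with the highest wild-type pool well below the lowest mutant pool. Its 1.94-fold difference (log2 fold change 0.96, SE 0.14) had an adjusted p of 0.0117 from edgeR and was not called at 0.01. DESeq2's Wald test, which called 2.81% of the genes it tested as higher, gave *nek2* an adjusted p of 1.37e-06.

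Of the checkpoint genes, *ttk* (ENSDARG00000041361) encodes the kinase at the head of the signal. It had 54.2, 54.0 and 52.3 CPM in mutant pools 1, 2 and 3 and 25.6, 23.6 and 22.4 CPM in wild-type pools 1, 2 and 3. Both genotypes were tight, with no overlap. *ttk* rose 2.24-fold (log2 fold change 1.17, SE 0.09, adjusted p = 0.0011 from edgeR).

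The kinase Bub1 and its partner Bub3 bind kinetochores as a complex, in which Bub3 reads the phosphorylation that Ttk sets. *bub1* (ENSDARG00000077029) was found at 49.4, 53.9 and 43.9 CPM in mutant pools 1, 2 and 3 and at 29.5, 26.2 and 24.6 CPM in wild-type pools 1, 2 and 3. *bub3* (ENSDARG00000075883) was found at 35.1, 32.2 and 29.8 CPM in mutant pools 1, 2 and 3 and at 18.0, 17.6 and 17.4 CPM in wild-type pools 1, 2 and 3. Neither gene overlapped between the genotypes, the wild-type pools of *bub3* were almost identical, and the mutant pools of *bub1* were the more spread. Each gene rose 1.83-fold, the smallest change of the 10 genes. The log2 fold change was 0.88 for *bub1* (SE 0.11, adjusted p = 0.00731) and 0.87 for *bub3* (SE 0.10, adjusted p = 0.00395, both from edgeR).

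Mad2, encoded by *mad2l1* (ENSDARG00000004713), is the part of the checkpoint that closes around Cdc20. Mutant pools 1, 2 and 3 had 20.4, 16.3 and 21.3 CPM of *mad2l1* and wild-type pools 1, 2 and 3 had 11.6, 8.98 and 9.20 CPM. Mutant pool 2 was low and wild-type pool 1 was high within their groups, and the gap between the groups was the narrowest of the 10 genes. The 1.95-fold difference (log2 fold change 0.96, SE 0.15) had an adjusted p of 0.014 from edgeR and was not called, while DESeq2 gave an adjusted p of 1.82e-06.

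Cdc20 is both the target of the checkpoint and the activator of the APC/C, the ubiquitin ligase that opens anaphase. Its gene *cdc20* (ENSDARG00000100741) had 43.1, 41.9 and 45.2 CPM in mutant pools 1, 2 and 3 and 16.1, 14.7 and 16.2 CPM in wild-type pools 1, 2 and 3. Here the gap between the genotypes was the widest of the 10 genes, with the lowest mutant pool 2.59-fold above the highest wild-type pool. *cdc20* rose 2.77-fold (log2 fold change 1.47, SE 0.09) and had the smallest adjusted p of the 10 genes, 0.000649 from edgeR, at rank 8 among the 22753 genes tested.

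Ordered by fold change, *cdk1*, *cdc20* and *aurka* came first, *plk1*, *ttk* and *aurkb* followed, and *mad2l1*, *nek2*, *bub1* and *bub3* came last. Their ranks among all genes tested ran from 106 for *cdk1* to 576 for *bub3* by log2 fold change. The 5 kinases of mitotic entry and the spindle had a median log2 fold change of 1.21, and 4 of the 5 were called. The 5 checkpoint genes had a median of 0.96, and 4 of the 5 were called. DESeq2 with the same thresholds called all 10 genes, beside 2.81% of all genes it tested called higher. With a replicate block for the pool number edgeR called 8 of the 10, beside 0.747% of all genes called higher, and *nek2* and *mad2l1* again missed the threshold with adjusted p of 0.0121 and 0.0118.

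The calls needed both wild-type pools 2 and 3. Without wild-type pool 2, edgeR called 0 of the 10 genes, with adjusted p between 0.0129 and 0.0836, and without wild-type pool 3 it called 0 of the 10, with adjusted p between 0.0103 and 0.0604. All 10 genes had an unadjusted p under 0.05 in both of these fits. Such a p was common: in the main fit at least 5197 of the 22753 genes tested had it. The share of all genes in these fits without a pool was not taken. Over the same fits, calls among all genes went from 269 to 3 and 1, so few genes of any kind were called. Without mutant pool 1, 4 of the 10 genes were called, and 35 of all genes. The fold changes themselves stayed: over the 6 fits that left out 1 pool, the log2 fold change of *cdk1* ran from 1.48 to 1.63, that of *cdc20* from 1.43 to 1.498 and that of *bub1* from 0.80 to 0.95.

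Within a genotype the 10 genes varied little from pool to pool. The highest wild-type pool exceeded the lowest by 1.03-fold to 1.29-fold, and the highest mutant pool exceeded the lowest by 1.03-fold to 1.31-fold. Summed over the 10 genes, the level was 413.9, 400.7 and 414.3 CPM in mutant pools 1, 2 and 3 and 191.0, 172.9 and 176.5 CPM in wild-type pools 1, 2 and 3. Wild-type pool 1 was the highest wild-type pool for 8 of the 10 genes and wild-type pool 2 the lowest for 6. In the mutant no pool led throughout: pool 3 was highest for 5 genes, pool 1 for 4 and pool 2 for 1.

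The lanes of a pool gave the size of the counting error. Counts of the 10 genes in both lanes were compared in all 6 pools, which made 60 chi-square tests against the lane totals. Of the 60, 4 had an unadjusted p under 0.05. The widest split was that of *nek2* in wild-type pool 3, with 122 counts in one lane and 81 in the other. Over the 60 tests the lowest Benjamini-Hochberg adjusted p was 0.295. The mean chi-square was 1.03, so no spread beyond sampling noise was seen for these genes. The lanes of a pool were treated as 1 replicate.

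Levels of different genes were compared on the deposited FPKM, in which a count is divided by the exonic length of the gene and by the total of the library. In the wild type *cdk1* was highest at a mean of 15.4 FPKM, followed by *plk1* at 13.0, *mad2l1* at 11.2, *bub3* at 11.1 and *aurkb* at 10.9 FPKM. *cdk1* lay above the range of *plk1*, and *plk1* lay above the ranges of *bub3* and *aurkb* and above *mad2l1* in 3 of 3 pools, with ranges that overlapped. The ranges of *mad2l1*, *bub3* and *aurkb* overlapped, so the order of these neighbours was not resolved. Below them came *ttk*, *cdc20* and *bub1* at 7.01, 6.92 and 6.78 FPKM with overlapping ranges, then *aurka* at 4.19 FPKM and *nek2* at 2.21 FPKM, each apart from its neighbours.

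In the mutant *cdk1* was again highest at a mean of 47.3 FPKM and *plk1* second at 31.2 FPKM, and *nek2* was again lowest at 4.47 FPKM. Between them stood *aurkb* at 24.4, *mad2l1* at 22.6, *bub3* at 21.3 and *cdc20* at 20.01 FPKM, whose ranges overlapped from each to the next, although *aurkb* lay above the ranges of *bub3* and *cdc20*. *ttk* followed at 16.4 FPKM, clear of *cdc20*, and *bub1* at 13.0 and *aurka* at 12.1 FPKM overlapped. Among the wild-type pools *cdc20* shared its range with *ttk* and *bub1*, and among the mutant pools it lay above both.

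**Figure D2:**
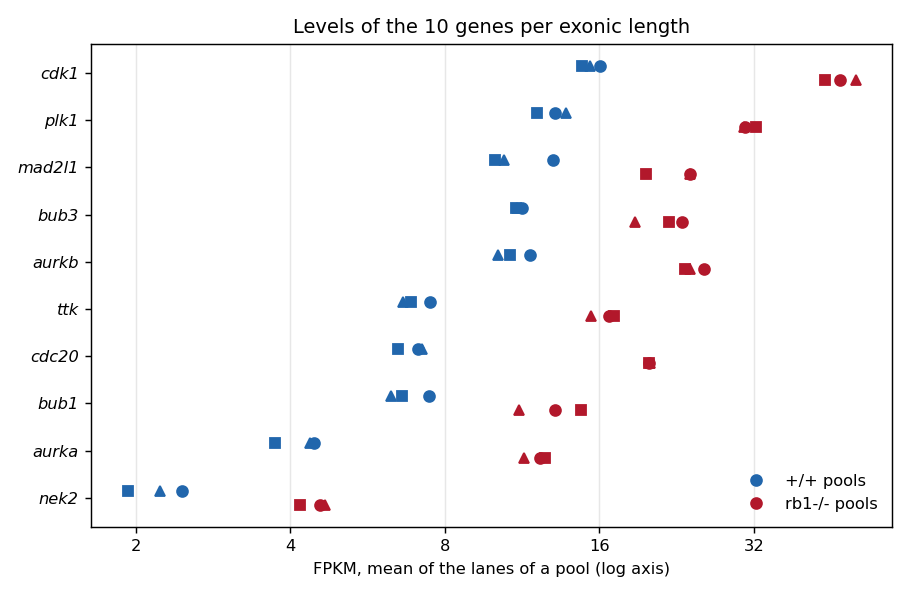
Deposited FPKM of the 10 genes on a log axis, mean of both lanes of a pool, ordered by the wild-type mean; blue points are wild-type pools, red points *rb1-/-* pools, and circle, square and triangle are pools 1, 2 and 3. Wild-type means ran from 2.21 FPKM for *nek2* to 15.4 FPKM for *cdk1*, and mutant means from 4.47 to 47.3 FPKM for the same genes.

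Whether genes moved by the same factor was asked with ratios of FPKM within a pool, for 6 pairs, with a two-sided exact permutation test over the 6 pools. With 3 pools against 3 this test cannot give a p below 0.1, so no ratio could pass 0.05. The log2 ratio of *bub3* to *bub1*, whose products form 1 complex, was 0.82, 0.57 and 0.75 in mutant pools 1, 2 and 3 and 0.60, 0.74 and 0.82 in wild-type pools 1, 2 and 3. The groups overlapped fully, and the means differed by -0.01 (exact p = 1.0).

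For *mad2l1* to *cdc20*, the inhibitor to its target, the log2 ratio was 0.26, -0.02 and 0.26 in mutant pools 1, 2 and 3 and 0.88, 0.63 and 0.53 in wild-type pools 1, 2 and 3. Every mutant pool lay below every wild-type pool. As a geometric mean there were 1.12 *mad2l1* transcripts for each *cdc20* transcript per length in the mutant and 1.60 in the wild type, a difference in log2 ratio of -0.51 (exact p = 0.1, the smallest possible, and 0.15 after Benjamini-Hochberg adjustment over the 6 ratios).

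Aurora B against Aurora A gave the same direction. For *aurkb* to *aurka* the log2 ratio was 1.06, 0.90 and 1.08 in mutant pools 1, 2 and 3 and 1.40, 1.52 and 1.22 in wild-type pools 1, 2 and 3, with no overlap and a difference of -0.37 (exact p = 0.1). The log2 ratio of *cdk1* to *ccnb1*, which encodes its partner cyclin B1, was 1.20, 1.12 and 1.20 in mutant pools 1, 2 and 3 and 0.88, 0.90 and 0.84 in wild-type pools 1, 2 and 3. It was higher in every mutant pool, by 0.30 (exact p = 0.1), and varied less between pools than the other 5 ratios.

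**Figure D3:**
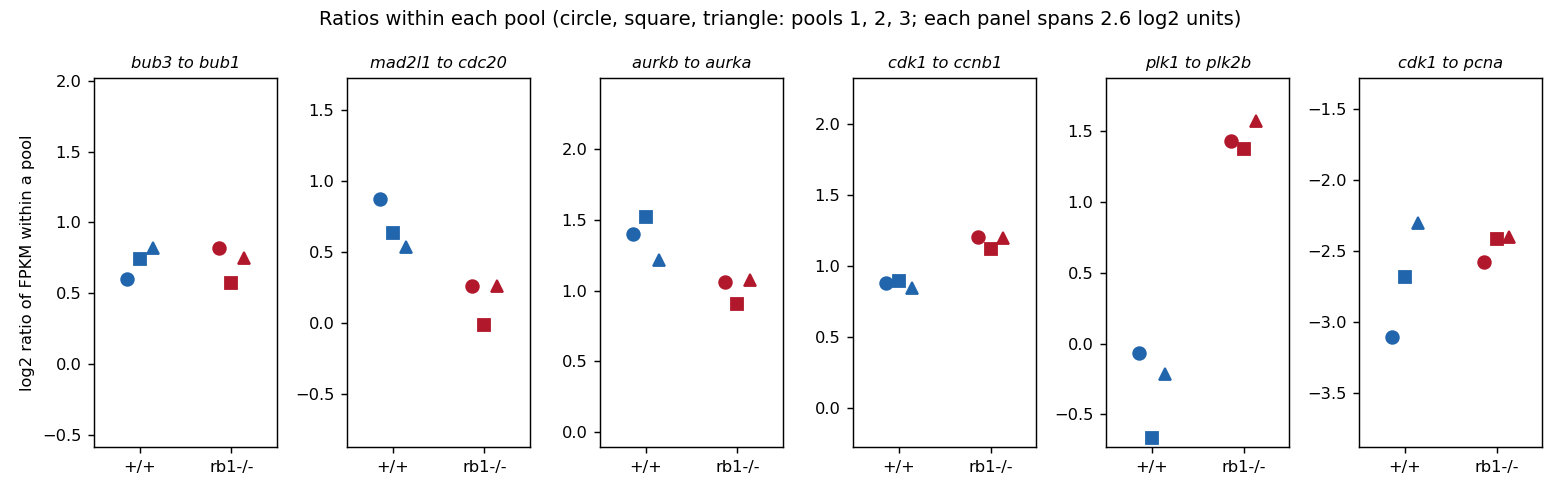
The log2 ratio of FPKM within each pool for 6 pairs of genes, with wild-type pools in blue and *rb1-/-* pools in red; each panel has its own centre and the same span. *bub3* to *bub1* and *cdk1* to *pcna* overlap between the genotypes, and the other 4 ratios do not, with a difference of 1.77 for *plk1* to *plk2b*.

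Genes that work with the 10 were described by 5 lists. Together 36 of their genes were tested, 33 higher and 3 lower in the mutant by sign, with a median log2 fold change of 0.99. edgeR called 19 higher and 0 lower, beside 0.897% and 0.286% of all genes tested. In 31 of the 36 all mutant pools lay above all wild-type pools, beside 16.1% of all genes tested. Without wild-type pool 2 or without wild-type pool 3, edgeR called 0 of the 36, with 30 and 31 at an unadjusted p under 0.05. The share of all genes with such a p in these fits was not taken. The fit without mutant pool 1 called 3 of the 36, and 35 of all genes. With the replicate block 17 of the 36 were called, beside 0.747% of all genes called higher. DESeq2 with the same thresholds called 24 of the 36 higher, beside 2.81% of all genes it tested.

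Among partners of *aurkb* in the chromosomal passenger complex, *birc5a*, which encodes survivin, was at 15.7, 14.3 and 13.4 CPM in mutant pools 1, 2 and 3 and at 4.37, 4.43 and 3.31 CPM in wild-type pools 1, 2 and 3. The lowest mutant pool was 3.03-fold above the highest wild-type pool, and *birc5a* rose by 1.84 on the log2 scale (edgeR's adjusted p = 0.00143), more than any of the 10 genes. *cdca8*, which encodes borealin, rose by 1.13 on the log2 scale (adjusted p = 0.00298). *birc5b* and *cdca9* had at most 6 counts in any pool and were not tested, and *incenp* was not matched in the table.

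Of 4 partners of Aurora A and Plk1 all 4 rose. *tpx2*, which encodes the activator of Aurora A on the spindle, rose by 1.20 on the log2 scale (edgeR's adjusted p = 0.00108). *bora*, whose product helps Aurora A to activate Plk1, rose by 1.11 (adjusted p = 0.00505). The spindle genes *tacc3* and *hmmr* rose by 0.93 (adjusted p = 0.00161) and 0.88 (adjusted p = 0.00237). The median of the 4 was 1.02, below the values of *aurka* and *plk1* themselves.

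Around *cdk1*, 6 of 11 cyclins and regulators rose. The mitotic cyclins *ccnb1*, *ccnb2*, *ccnb3* and *ccna2* had log2 fold changes of 1.26, 1.07, 1.35 and 1.11, and their adjusted p ran from 0.00113 for *ccnb1* to 0.00905 for *ccnb2*. With the replicate block *ccnb2* was not called (adjusted p = 0.0115), which left 5 of the 11. *cks2*, which encodes a small subunit of the kinase, and *mastl*, whose product shields Cdk1 substrates from a phosphatase, rose by 1.35 and 1.11. By sign 9 of the 11 were higher and 2 lower. The 2 were *pkmyt1*, which encodes an inhibitory kinase of Cdk1, at -0.01, and the phosphatase gene *cdc25d* at -0.51 (adjusted p = 0.194), neither called. *wee1*, which encodes another inhibitory kinase of Cdk1, was at 0.54 with all mutant pools above all wild-type pools. It was not called either (edgeR's adjusted p = 0.108). The same order of pools, again without a call by edgeR, was seen for 2 genes of the list. These were the phosphatase gene *cdc25b* at 0.525 (adjusted p = 0.024) and *cks1b* at 0.87 (adjusted p = 0.0195).

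Checkpoint partners were higher by sign in 9 of 9, with a median log2 fold change of 1.04, and 2 were called. These were both genes for BubR1, the pseudokinase that joins Mad2 and Bub3 in holding Cdc20. *bub1bb* had 17.7, 14.6 and 19.0 CPM in mutant pools 1, 2 and 3 and 8.26, 6.58 and 7.91 CPM in wild-type pools 1, 2 and 3, and it rose by 1.17 (adjusted p = 0.00604). *bub1ba* rose by 1.05 (adjusted p = 0.00267), and the smallest difference of the list was 0.42 for *mad2l1bp*, whose product helps to open the bound form of Mad2.

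Downstream of *cdc20*, 5 of 10 genes of the APC/C and anaphase list were called higher: *espl1*, which encodes separase (log2 fold change 1.18), *pttg1*, which encodes securin (1.03), the ubiquitin-conjugating enzymes *ube2c* (0.99) and *ube2s* (0.96), and the APC/C inhibitor *fbxo5* (0.99). With the replicate block *pttg1* was not called (adjusted p = 0.0157), which left 4 of the 10. The core subunits *cdc16*, *cdc23* and *cdc27* had 0.50, 0.44 and 0.28, and none was called. *fzr1a* and *fzr1b*, which encode Cdh1, the activator that takes over from Cdc20 after mitosis, were at 0.17 and -0.19 and were not called.

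**Figure D4:**
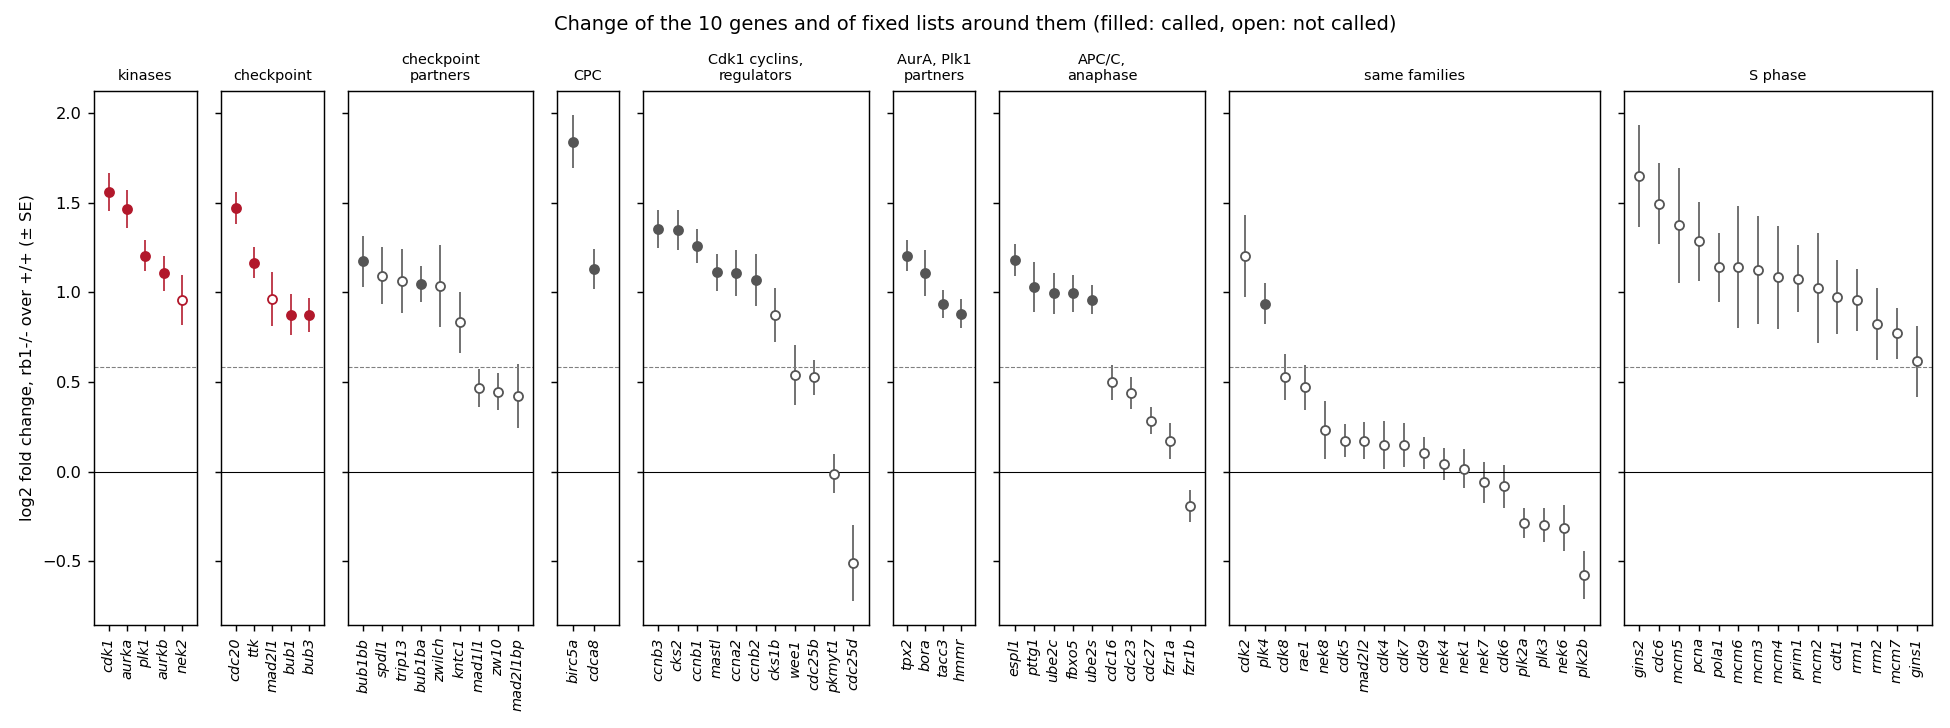
Log2 fold change with its standard error, *rb1-/-* over +/+, of the 10 genes (red) and of the listed genes tested (grey); filled circles were called, open circles were not, and the dashed line marks 1.5-fold. CPC is the chromosomal passenger complex. Of the 10 genes 8 are filled, of the 36 genes of the 5 partner lists 19, of the 18 genes of the same families 1 and of the 15 S phase genes 0.

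Relatives of the 10 genes within their protein families gave other values. Of 18 tested genes of the Cdk, Polo, Nek and Mad2 or Bub3 families, 1 was called, *plk4*, which encodes the kinase of centriole duplication (log2 fold change 0.94, edgeR's adjusted p = 0.00624). The replicate block gave *plk4* an adjusted p of 0.0104, which is not called. The median of the 18 was 0.12. The largest value was that of *cdk2*, the kinase of S phase, at 1.20 (adjusted p = 0.0272), which was not called by edgeR. DESeq2 with the same thresholds called 2 of the 18 higher, *cdk2* among them (adjusted p = 1.79e-05), beside 2.81% of all genes it tested.

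The Polo-like kinases differed most within a family. *plk2b*, which is known in other species as a stress-inducible and neuronal gene, was at 26.9, 28.6 and 25.3 CPM in mutant pools 1, 2 and 3 and at 33.9, 47.6 and 39.1 CPM in wild-type pools 1, 2 and 3. All mutant pools were below all wild-type pools, the opposite order to *plk1*, with a log2 fold change of -0.58 that was not called (adjusted p = 0.0478). Between *plk1* and *plk2b* the log2 ratio was 1.43, 1.37 and 1.57 in mutant pools 1, 2 and 3 and -0.06, -0.67 and -0.22 in wild-type pools 1, 2 and 3. It differed by 1.77 (exact p = 0.1, the smallest possible), from *plk1* at 0.804 of the *plk2b* level in the wild type to 2.75 times that level in the mutant. *plk2a* and *plk3* were at -0.29 and -0.30, with all mutant pools below all wild-type pools and neither called. The share of all genes with that order was not taken, and for the opposite order it was 16.1%.

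Genes of DNA synthesis were more spread among the wild-type pools than the 10 genes, a difference that was not tested. All 15 S phase genes were higher in the mutant without overlap, beside 16.1% of all genes tested. Their median log2 fold change was 1.08, close to the 1.14 of the 10 genes. None of the 15 was called by edgeR, and DESeq2 called 14 higher, beside 2.81% of all genes it tested. By edgeR 15 had an unadjusted p under 0.05, beside at least 5197 of the 22753 genes tested. Their log2 fold changes ran from 0.62 for *gins1* to 1.65 for *gins2*. The highest wild-type pool exceeded the lowest by 1.36-fold to 2.98-fold for these genes, against 1.03-fold to 1.29-fold for the 10 genes, and their standard errors ran from 0.14 to 0.34 against 0.09 to 0.15.

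Wild-type pool 1 was the highest wild-type pool for all 15 S phase genes. Without it edgeR called 5 of the 15, 6 of the 10 mitotic genes and 212 of all genes. For *pcna*, the sliding clamp of DNA polymerase, the level was 397.6, 322.5 and 394.4 CPM in mutant pools 1, 2 and 3 and 205.2, 141.1 and 110.9 CPM in wild-type pools 1, 2 and 3. For *cdk1* to *pcna* the log2 ratio was -2.58, -2.42 and -2.40 in mutant pools 1, 2 and 3 and -3.11, -2.68 and -2.30 in wild-type pools 1, 2 and 3. The groups overlapped, and among the wild-type pools *pcna* was spread where *cdk1* was nearly level (difference 0.23, exact p = 0.5, adjusted p = 0.6). The difference was 0.025 without wild-type pool 1 and 0.43 without wild-type pool 3. With the replicate block, 1 of the 15 was called, *cdc6*, which encodes a loader of the replicative helicase (adjusted p = 0.00782). That fit called 0.747% of all genes higher.

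**Figure D5:**
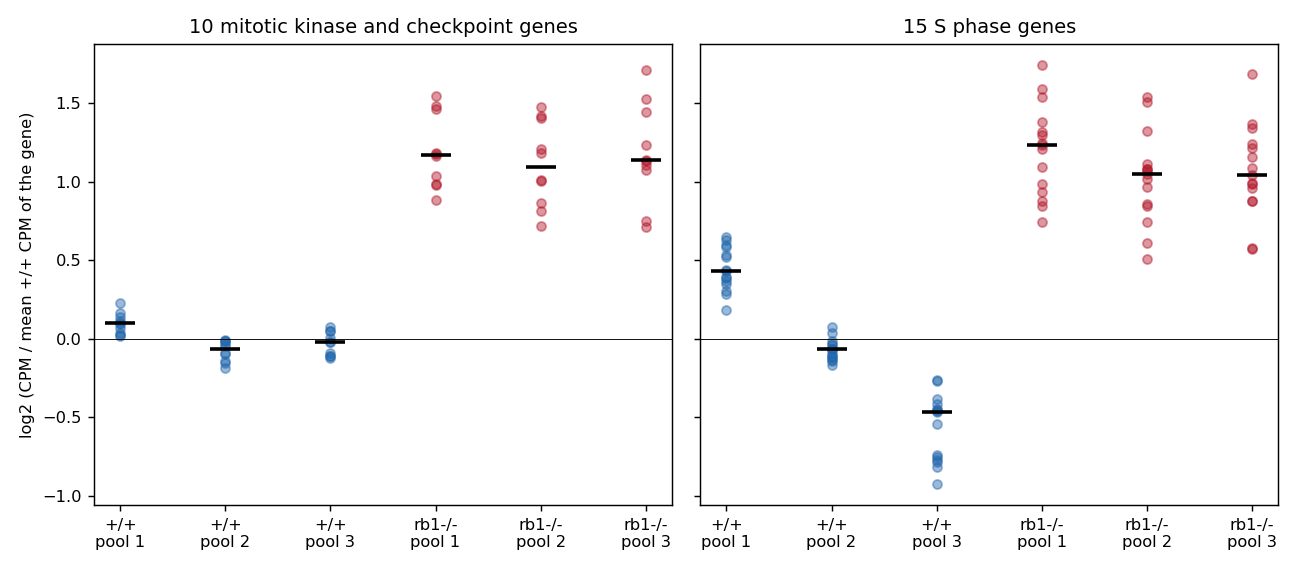
Log2 of the CPM of a gene over its own wild-type mean, in each pool, for the 10 mitotic genes (left) and 15 S phase genes (right); each point is a gene and each black bar the median of the genes in that pool. The wild-type points of the mitotic genes stay close to 0, while those of the S phase genes spread by up to 2.98-fold between pools.

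Marker genes of other cells were read in the same libraries, 30 in all. edgeR called 0 of them. Of the 30, 12 had an unadjusted p under 0.05, beside at least 5197 of the 22753 genes tested. DESeq2 called 7 of the 30, beside 1107 of the 23080 genes it tested. The 7 were *hbae1.1*, *hbbe1.1* and *alas2* of red blood cells, higher, and *rho* and *gnat1* of photoreceptors, *cyt1* of epidermis and *fabp10a* of liver, lower. Neuronal markers had a median log2 fold change of 0.06 and radial glia markers 0.10 (6 of 6 tested in each), and skeletal muscle markers -0.09 (4 of 4). Their summed levels were 1865 to 2490 CPM in the mutant and 2054 to 2286 CPM in the wild type for neurons, 546.6 to 568.7 and 476.9 to 546.6 CPM for radial glia, and 3115 to 4160 and 3620 to 4265 CPM for muscle. Within the radial glia list, *her4.1* was at -0.60 with all mutant pools below all wild-type pools. *nes* was at 0.42 with all mutant pools above, and neither was called. No marker was at 0 in any pool. Photoreceptor markers summed to between 3845 and 4251 CPM in the mutant and between 5274 and 6859 CPM in the wild type (4 of 4 tested). Of that sum *rho* alone had means of 2555 CPM in the mutant and 4131 CPM in the wild type. The markers did not all move together: *gnat2* overlapped between the genotypes, and *crx* was higher by sign (log2 fold change 0.145). Epidermal markers summed to between 8758 and 11230 against between 12710 and 15040 CPM (3 of 3). Red blood cell markers went the other way, between 57.0 and 119.8 CPM against between 33.6 and 53.5 CPM (3 of 3). Most of that sum was *hbbe1.1*, which overlapped between the genotypes, with mutant pool 2 at 45.21 CPM and wild-type pool 1 at 46.05 CPM. *hbae1.1* had few counts, 34 to 66 in the mutant pools and 7 to 18 in the wild-type pools. Liver and pancreas markers, which a head should lack, were present at 406.1 to 1707 CPM in the mutant and 1885 to 2340 CPM in the wild type (4 of 4). Of these, *fabp10a* and *tfa* were lower in the mutant without overlap, with log2 fold changes of -1.35 and -1.03. *ins* and *prss1* overlapped between the genotypes, with 0.10 and -0.41. Among the mutant pools the highest exceeded the lowest by 2.95-fold to 9.02-fold for these markers. The part of these cell types in the changes of the 10 genes was not tested.

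Some counts could include reads of a neighbouring gene. In the RefSeq annotation of the GRCz12tu assembly, which is not the build of the files, *cdk1* overlapped 1 other protein-coding gene and *bub3* overlapped 1 long non-coding RNA, and the other 8 genes overlapped none. Whether reads were counted by strand is not given in the sources used here, so the shares of the overlapping genes cannot be told apart for *cdk1* and *bub3*.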

How the data were processed

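Per the labels and the study's methods, GSNAP (genome GRCz10) and HTSeq gave the counts of uniquely aligned reads on genes, and the deposited table holds raw counts for 12 lanes. FPKM values were computed by the authors from these counts and their exonic lengths. A deposited table of the authors' own DESeq2 comparison, with fold changes and p-values, was not used. The members and gene lists were chosen with earlier results of these data known. Of the listed genes, *ube2c* and *rrm2* each had 2 identifiers. The one with more counts was used, and no value of the other is given. Lanes were summed by pool, giving n = 3 per genotype. By the study's methods the larvae were siblings from an in-cross, so p-values measure the spread between pools of siblings.

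The test of counts was that of edgeR 4.0.16 with R 4.3.3 (filterByExpr, TMM, quasi-likelihood, genotype only), with Benjamini-Hochberg adjustment over 22753 genes. The SE is the size of the log2 fold change over the square root of F. The fit was tested on simulated counts in which 200 of 22753 genes were changed 2-fold. The genotype-only fit of edgeR called 87 of the 200 and 4 unchanged genes. With the replicate block edgeR called 39 and 3, and DESeq2 called 158 and 25. A gene changed 2-fold can therefore go uncalled by edgeR. The simulated counts held no effect of pool number, so they cannot show whether the block helps or harms in the real pools. Alternatives were DESeq2 1.42.0, other scalings, no filter, single lanes, lanes as separate samples, leaving out each pool, and a replicate block. Deviations of same-numbered pools from their group means correlated at 0.41, 0.431 and 0.281 across genes, and those of differently numbered pools at -0.345 to 0.031. Deviations cancel out within a group, so these correlations are not independent and do not settle whether the pools were paired. The replicate block was therefore fitted as an alternative. The main fit and the ratio tests took no account of pool number. Ratios were tested with scipy 1.17.1. Named genes are the 10 members, *rb1*, ratio partners, and in each list the called genes and those with the largest and smallest log2 fold change. Printed outside that rule are *plk2a*, *plk3*, *cdc6*, *pkmyt1*, *wee1*, *cdc25b*, *cks1b*, *cdc16*, *cdc23*, *cdc27*, *fzr1a*, *birc5b*, *cdca9* and *incenp*. Cell type markers are given as lists, with those that DESeq2 called named, and *gnat2*, *crx*, *her4.1*, *nes*, *tfa*, *ins* and *prss1* besides.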

Additional observations from a re-analysis of the deposited data

How the results depend on the processing

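Of 150 fits of the 10 genes under 15 alternatives, 97 kept a call, 23 lost it, 7 gained one, 23 stayed not called and 0 changed direction. Leaving out 1 pool at a time, edgeR called between 0 and 8 of the 10 genes and between 0 and 16 of the 36 partner genes. Over all genes these fits called between 1 and 219. Library totals alone, DESeq2 and lanes as separate samples called 10 of the 10 genes, no filter called 9, and the other scalings, each lane alone and the replicate block called 8. The block changed no call of the 10 genes, and called 17 of the partner genes against 19. It moved the call of *rb1*, which edgeR's main fit did not call (log2 fold change -1.09, adjusted p = 0.0121). The adjusted p of *rb1* was below 0.01 with the replicate block (log2 fold change -1.08, adjusted p = 0.00614). The same held with no filter (-1.09, adjusted p = 0.00865) and with DESeq2 (-1.10, adjusted p = 2.54e-07). It held as well in lane b (-1.12, adjusted p = 0.00688) and with lanes as separate samples (-1.09, adjusted p = 1.24e-05). In the remaining alternatives edgeR did not call *rb1*. Its adjusted p was 0.0179 in lane a and 0.0127 to 0.0137 with the other scalings, library totals included. Leaving out 1 pool at a time gave 0.0192 to 0.0585. Leaving out 1 pool, the difference of the *bub3* to *bub1* log2 ratio ran from -0.066 to 0.065, so its sign was not set. Over all genes DESeq2 called 1107, lanes as separate samples 1536, library totals alone 357 and no filter 340, against 269. Lanes, though, are not independent samples. Scaling by library totals moved the median of all genes by 0.06 on the log2 scale, the most of any scaling. The p-values rest on 3 pools a genotype, and for the 10 genes no spread between lanes beyond sampling noise was seen. Promoter sequences were not analysed here.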
